A study of Mus musculus with 2 samples.

Results

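Haem synthesis and iron handling were read through 9 genes: Alas1, Alas2, Fech, Blvrb, Hmox1, Tfrc, Steap3, Slc40a1 and Fth1. They were taken by name, as every non-control probe whose gene name or transcript accession belongs to one of them, and this gave 14 of the 55680 probes kept and 9 of the 34786 genes or transcripts on the array. The samples were bone marrow LSK cells (lineage-, Sca-1+, c-Kit+), a sort enriched for blood stem and early progenitor cells, of C57BL/6 mice. Both groups carried the genotype Tet2KD/KD; Ezh2delta/delta and a myelodysplastic syndrome (MDS), a clonal marrow disease with ineffective blood formation, and both came from secondary transplant recipients 10 weeks after transplantation. One group had been given DAC (decitabine, which depletes DNA methyltransferases by trapping them on DNA), and the other phosphate-buffered saline (PBS). The source labels give 7 weeks beside either treatment. The labels name no marker that separates donor from recipient cells, and the sources used here do not give the number of mice behind a sample, their age or the dose. Each group had 1 array, hence no replicate and no test.

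Haem is an iron-holding porphyrin. Its synthesis starts and ends in the mitochondrion, with an aminolevulinate synthase (Alas1 in most cells, Alas2 in erythroid cells) at the first step and ferrochelatase (Fech) at the last, where iron is put into the ring. Iron enters bound to transferrin through the transferrin receptor (Tfrc), is reduced in the endosome by Steap3, is stored in ferritin (Fth1 encodes its heavy chain) and leaves through ferroportin (Slc40a1). Haem oxygenase 1 (Hmox1) opens the ring and biliverdin reductases such as Blvrb act on its products. The pathway is best known in bone marrow for supplying haemoglobin synthesis in erythroid precursors and for the recycling of iron by macrophages.

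Steap3 was the member that differed most: it was 6.96-fold lower on the DAC array at its brighter probe and 2.76-fold lower at its second probe. Blvrb was 2.02-fold lower on its only probe. Hmox1, Tfrc and Alas1 were read by several probes that did not give the same answer, with Hmox1 3.91-fold higher at one probe and 1.22-fold higher at the other. Fech and Fth1 were within 2-fold. The erythroid synthase gene Alas2 was well above background on the PBS array only and the exporter gene Slc40a1 on the DAC array only, both near the limit of detection.

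The probes that carry these results are 60 bases long and are shown as printed on the array, 5′ to 3′ in the sense of the transcript. The first pair are those with the largest difference in each direction, the next pair are Tfrc probes of which the first differed beyond the spot error and the second did not, and the last is the Alas2 probe. Capitals in it mark a TAA in the reading frame of the probe's first base, the only one of the 3 sense frames with a stop codon in the probe.
Steap3, position 1792 of NM_001085409: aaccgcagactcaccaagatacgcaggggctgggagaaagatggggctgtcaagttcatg
Hmox1, position 324 of NM_010442: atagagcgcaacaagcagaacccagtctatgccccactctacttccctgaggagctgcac
Tfrc, position 1228 of NM_011638: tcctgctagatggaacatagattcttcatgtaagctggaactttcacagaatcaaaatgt
Tfrc, position 1732 of NM_011638: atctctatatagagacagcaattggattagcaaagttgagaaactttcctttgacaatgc
Alas2, position 1806 of NM_009653: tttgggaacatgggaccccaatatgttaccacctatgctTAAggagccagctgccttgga
In mm9, the build of the file headers, the Steap3 probe lies at chr1:122124269-122124328 on the minus strand and the Hmox1 probe at chr8:77620797-77620856. The Tfrc probes lie at chr16:32620470-32620529 and chr16:32624877-32625093, the latter whose 60 bases span 217 bases of the genome, and the Alas2 probe at chrX:147004993-147005052. The Alas2 probe holds 18 bases after that TAA, and 1 sense frame of the Hmox1 probe is open over its whole length. No other probe on the array shared a stretch of 30 bases with any of the 14 member probes.

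Values are log2 signals relative to the 75th percentile of each array, taken over the 25404 probes that both arrays flag well above background, and a difference is the DAC signal minus the PBS signal. A signal of 0 is that percentile, and where signals are given as a pair the DAC array comes first. Where a probe was well above background on 1 array only, its fold is a bound toward that array. It is set by the other array's signal, or by the lowest signal well above background there if that is higher. The bound does not allow for spot error, and another background treatment can give less. The DAC array was the brighter one, with 56.8% of its probes well above background against 48.5%. The error given beside a difference is the SD expected from repeated spots, estimated from probes printed 10 times. It was 0.30 for dim probes, 0.14 for those of middle signal and 0.09 for bright ones. This error covers the spread of spots within an array, not variation between arrays in hybridisation or scanning, nor mice, sorting or RNA preparation. The scanner software's own error model gave SDs of 0.20 to 0.60 for the member differences, larger for most of them: 0.20 against 0.03 for Tfrc at position 4288, 0.21 against 0.09 for Hmox1 at position 1290 and 0.60 against 0.30 for Alas2. Among the 18211 genes measured on both arrays, the median difference was 0.02 (SD 0.81 over genes), and a gene was counted as higher or lower on the DAC array from 2-fold on: 10.0% counted as higher and 6.84% as lower. The higher side held 59.4% of these genes, against 41.8% with scaling over all probes. That scaling and the series matrix values moved the median of all genes by −0.20, quantile normalization by −0.11, and the other scalings by less. The sort markers Kit and Ly6a, which encode c-Kit and Sca-1, were measured on both arrays, with differences of 0.12 and 0.07. Of the genes of lineage antigens, Itgam, which encodes the myeloid antigen CD11b, was also measured, with signals of 5.64 and 6.19, far above the 75th percentile of either array although the sort is labelled lineage-.

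**Figure D1:**
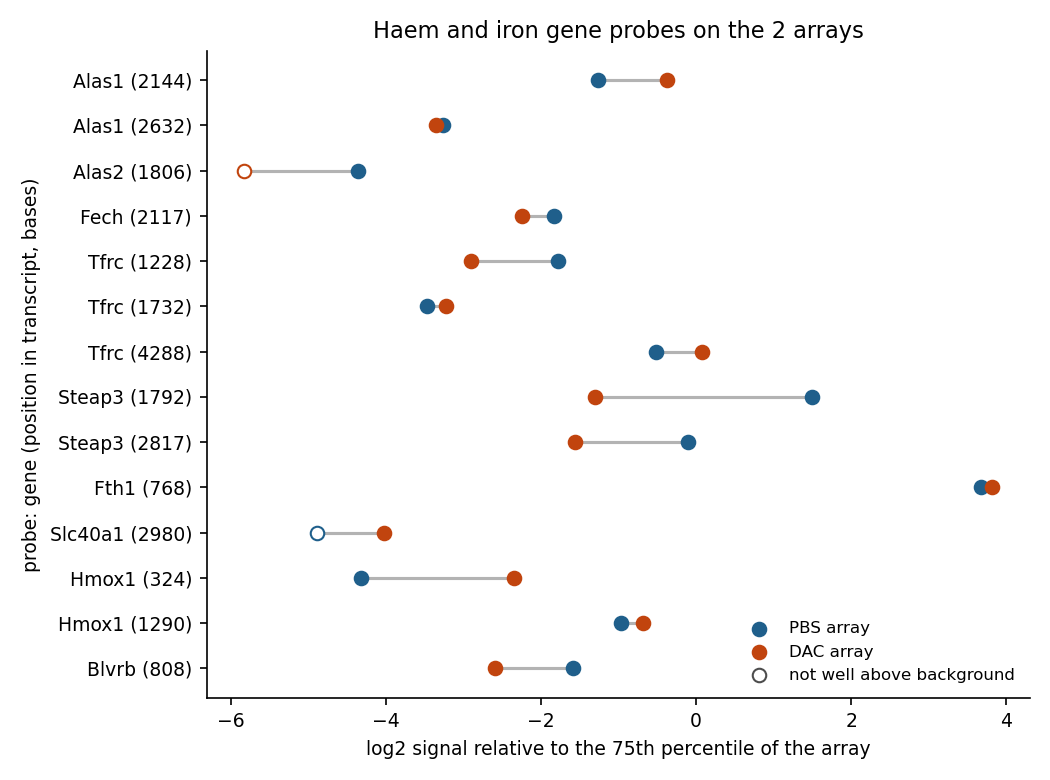
Log2 signal of the 14 member probes, relative to the 75th percentile of the array, on the PBS array (blue) and the DAC array (orange), 1 array per group; open circles are not well above background. The widest gap is that of Steap3 at position 1792, from 1.49 on the PBS array to −1.31 on the DAC array, and signals of different probes are not comparable with each other.

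Of the 9 members, 7 were measured on both arrays by their brightest probe. Of these 7, 0 counted as higher and 2 as lower, beside the 10.0% and 6.84% of all genes measured, and 7 genes are too few for a share of this kind to be set against the background. Their median difference was 0.14, near the 0.02 of all genes. In sorted cells measured in bulk, fewer cells of a type and less RNA per cell cannot be told apart.

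Among the members, those of iron uptake come first. Steap3 encodes the endosomal ferrireductase that turns ferric into ferrous iron in erythroid precursors. Its probe at position 1792 had a signal of −1.31 with DAC and 1.49 with PBS, a difference of −2.80 (SD 0.09 from repeated spots, 1 spot per array). The processed intensities behind it were 329 and 1740, the former lower although the DAC array was the brighter. Its probe at position 2817 (chr1:122123244-122123303) had −1.56 and −0.10, a difference of −1.46 (SD 0.14). Both probes were thus lower on the DAC array by far more than the spot error, though by different amounts. Of the 18211 genes measured, 65 had a lower difference than Steap3. Under the 7 alternative scalings and background treatments it stayed at −2.54 or lower at position 1792 and between −1.67 and −1.28 at position 2817.

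Tfrc encodes the receptor for iron-loaded transferrin, and its 3 probes disagreed. The probe at position 4288 (chr16:32632255-32632314) was printed 10 times. Its intensities were 803 to 936 with DAC and 387 to 481 with PBS, so that no spot of one array fell within the range of the other. These intensities are not scaled, and the DAC array was the brighter. After scaling, the probe's signals were 0.08 and −0.52, a difference of 0.60 (SD 0.03 for 10 spots on each array). These spots are technical repeats of 1 sample per group. The probe at position 1732 had −3.23 and −3.47, a difference of 0.24 (SD 0.30), and it turned negative under 4 of the 7 alternatives. The probe at position 1228 had −2.90 and −1.78, a difference of −1.11 (SD 0.30), and was negative under each of the 7. The DAC signal of Tfrc was thus above, within the spot error of, or below the PBS signal according to the probe.

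Iron storage and export were read by 1 probe each. Fth1, the ferritin heavy chain gene with ferroxidase activity (chr19:10059485-10059544), had signals of 3.82 and 3.68, a difference of 0.14 (SD 0.09). It turned to −0.06 with scaling over all probes and with the series matrix values, so no direction is given. Slc40a1, the gene of ferroportin, the cellular iron exporter (chr1:45965255-45965314), had a signal of −4.02 on the DAC array and one of −4.89, not well above background, on the PBS array. The bound was 1.83-fold higher with DAC. It was set by the probe's own PBS signal, which lay above the lowest signal well above background there (−4.93), so it equals the difference of 0.87. That difference shrank to 0.04 without background subtraction, below the bound, so at this signal the size was not fixed by the data.

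The haem-degrading genes had differences of opposite sign. Hmox1, the inducible haem oxygenase gene, had signals of −0.68 and −0.97 at position 1290 (chr8:77624207-77624266), a difference of 0.29 (SD 0.09, or 0.21 by the scanner's error model), with a range of 0.08 to 0.26 over the alternatives. At position 324 it had −2.35 and −4.32, a difference of 1.97 (SD 0.30). The PBS intensity at that probe was 31.0, close to background, and the difference became 0.89 without background subtraction. Hmox1 was above 0 at both probes under each of the 7 alternatives, by amounts that the probes did not share. At position 1290 the lowest of these, 0.08, was within the spot error of 0.09. Blvrb, which encodes biliverdin reductase B, had signals of −2.60 and −1.59 (chr7:28250944-28251000), a difference of −1.01 (SD 0.14). It was just past 2-fold, and normexp background correction moved it to −0.74, within 2-fold.

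**Figure D2:**
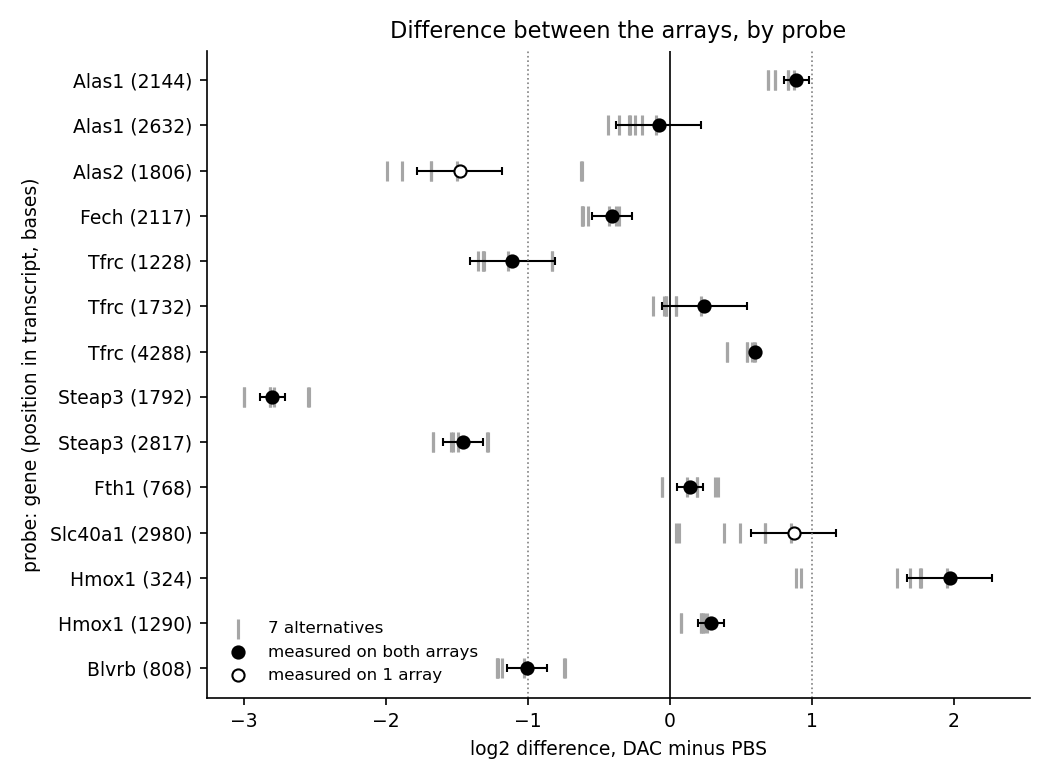
Log2 difference (DAC minus PBS) of each member probe; bars are the SD expected from repeated spots, grey ticks the 7 alternative scalings and background treatments, dotted lines 2-fold. Both Steap3 probes lie beyond 2-fold under every tick, whereas Blvrb at −1.01 lies on the line and Fth1 straddles 0.

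Among the haem synthesis genes, the housekeeping synthase gene Alas1 had signals of −0.38 and −1.27 at position 2144 (chr9:106136284-106136343), a difference of 0.89 (SD 0.09), and remained between 0.69 and 0.87 under the alternatives. Its probe at position 2632 (chr9:106135796-106135855) had −3.36 and −3.27, a difference of −0.08 (SD 0.30). One Alas1 probe was thus higher on the DAC array by more than the spot error and the other was within it. Its erythroid paralogue Alas2, whose loss causes sideroblastic anaemia, had −5.83, not well above background, with DAC and −4.36 with PBS. The bound was 1.77-fold lower with DAC, but the difference of −1.48 became −0.63 with normexp correction and −0.62 without background subtraction, smaller than that bound, so its size was not fixed by the data. Fech, the last enzyme, had −2.24 and −1.83, a difference of −0.41 (SD 0.14) that stayed between −0.62 and −0.36 under the alternatives. Its only probe lies on chromosome 18, 64616928 to 64616987. Alas1 and Fech were within 2-fold on each of their probes.

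Of 5 other enzymes of haem synthesis, 4 were measured on both arrays, 0 counted as higher and 0 as lower, and the median was 0.03, or −0.18 with scaling over all probes. Alad, which joins aminolevulinate molecules in pairs, had a difference of 0.88, Cpox 0.18, Urod −0.13 and Ppox −0.15, while Uros was detected with DAC alone, with a bound of 1.11-fold. Cpox changed sign under 2 of its alternatives.

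Where a transcript was read at several positions, the probes could be set against each other. The gap between the differences of 2 probes was 1.68 for Hmox1, 1.33 for Steap3 and 0.97 for Alas1. For Tfrc it was 1.36 between positions 1228 and 1732, 1.72 between 1228 and 4288, and 0.36 between 1732 and 4288. Over all 3148 pairs of measured probes on the same accession the median gap was 0.50, the 90th percentile 1.73, and 39.2% of pairs had opposite signs. The Hmox1 gap was as wide as or wider than 89.1% of these pairs and that of Steap3 than 82.7%. The members' gaps therefore were above the median of all pairs, except for the Tfrc pair of 1732 and 4288, and below their 90th percentile. Steap3 and Tfrc had the lower difference at the upstream position and Hmox1 and Alas1 the higher. Over 1947 pairs at least 500 bases apart the upstream minus downstream median was −0.07.

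**Figure D3:**
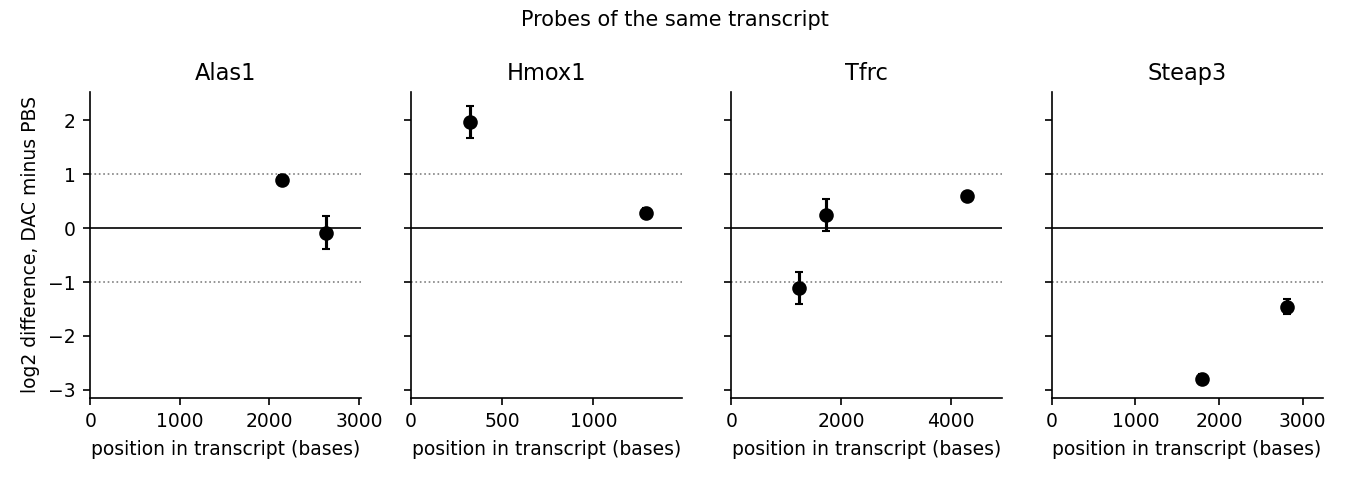
Log2 difference (DAC minus PBS) against the probe's position in the transcript, in bases from its 5′ end, for the 4 members with several probes; bars are the SD expected from repeated spots and can be smaller than the point. Only Steap3 has all its probes beyond the dotted 2-fold lines on the same side, and Tfrc runs from −1.11 to 0.60.

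Promoter sequence was looked at for motifs of factors known in this pathway. RefSeq promoter windows of 250 bases before to 50 after a start site (GRCm38.p6) were matched for 6 members, 13 windows in all; Fech, Hmox1 and Slc40a1 had none. On both strands, the GATA motif AGATAA, bound by GATA factors of erythroid cells, was present in 2 of these windows, 1 of the 4 of Steap3 and the 1 of Alas2, against 11.2% of all 32851 windows. The second GATA motif TGATAA (9.05% of all windows), the antioxidant response core TGACNNNGC (12.4%), the E-box CACGTG (7.15%) and, on the sense strand after the start site, the loop of the iron responsive element, CAGTG with a C 5 bases ahead of it (1.58%), were in 0 of 13. A window holds only 250 bases before and 50 after a start site. A motif further upstream, or an iron responsive element further along a transcript, could not be found. The 0 of 13 therefore does not show that a member lacks any of these. The 150 bases before the start site of the 2 windows with AGATAA are shown because they hold it, with its reverse complement in capitals.
Steap3, chr1:120271081-120271230, minus strand: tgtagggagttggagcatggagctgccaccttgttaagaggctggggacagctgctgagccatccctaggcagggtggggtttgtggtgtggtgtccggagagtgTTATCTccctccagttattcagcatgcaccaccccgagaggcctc
Alas2, chrX:150547267-150547416, plus strand: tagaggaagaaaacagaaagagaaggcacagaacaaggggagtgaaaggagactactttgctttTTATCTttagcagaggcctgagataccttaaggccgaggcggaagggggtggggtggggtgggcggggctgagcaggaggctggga
The motif begins 45 bases before the Steap3 start and 86 before the Alas2 start. The windows of Alas1, Blvrb, Tfrc and Fth1 held none of these motifs. The 13 windows are too few for a share to be set against that of all windows. A match of letters is a description of the sequence and not a bound site.

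Of 13 marker genes of erythroid cells, 10 were measured on both arrays, of which 0 counted as higher and 1 as lower, with a median of −0.20 and a mean signal of −1.49 on the DAC array against −1.16 on the PBS array. The lower one was Gata1, the erythroid and megakaryocyte master regulator, with −1.45 and 0.57, a difference of −2.02 (SD 0.09). It stayed past 2-fold under each of its 12 alternatives, which for genes include other filters and probe choices. Those cannot move the value of a gene with 1 measured probe, such as Gata1, so only the scalings and background treatments bear on it. The same holds for Pgrmc1, Abcb6, Nfs1, Ireb2 and Erfe, given further below. The Gata1 target Klf1 had a difference of −0.44 and the globin genes Hba-a1 and Hbb-bs −0.39 and −0.76. Of the 10, 4 were above 0: Slc4a1, the red cell anion exchanger gene, at 0.46, Ermap at 0.29, Tal1 at 0.18 and the carbonic anhydrase gene Car2 at 0.04, while the erythroid membrane protein genes Epb42 and Rhag were not well above background on either array. Epor, whose product binds erythropoietin, was detected with DAC alone, with a bound of 2.83-fold; 3.61% of all genes were detected with DAC alone with a bound of 2-fold or more. The part of erythroid RNA in the lower Steap3, Blvrb and Alas2 signals was not tested.

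Macrophage markers were measured beside Hmox1 and Slc40a1, which macrophages use to recycle iron. Of 12 markers, 5 were measured on both arrays, 0 past 2-fold in either direction, with a median of 0.27 and mean signals of −1.67 with DAC and −1.99 with PBS. Another 4 were detected with DAC alone. Adgre1 had a bound of 4.97-fold, while C1qa, Vcam1 and Spic had bounds of 1.31-fold, 1.24-fold and 1.02-fold. Only 1 of the 12 markers thus had a bound of 2-fold or more with DAC alone, beside 3.61% of all genes. Cd163, the haemoglobin scavenger receptor gene, was detected with PBS alone, with a bound of 3.76-fold; 1.52% of all genes were detected with PBS alone with a bound of 2-fold or more. Mertk and Timd4 were not well above background on either. Csf1r, the receptor gene of a macrophage growth factor, had differences of 0.02 on its brightest probe and 2.27 and 0.90 on the others. Cd68, a lysosomal protein gene, had 0.87 on its brighter probe and 0.10 on the other, and the complement gene C1qb 0.57. The part of macrophage RNA in the Hmox1 and Slc40a1 signals was not tested.

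The other genes of haem and iron metabolism were grouped into 7 lists. Of these 73 genes, 57 were measured on both arrays: 7 counted as higher (12.3%), 4 as lower (7.0%) and 46 as neither, and the median was 0.18. These shares were near the 10.0% and 6.84% of all genes. With scaling over all probes the counts became 3 higher and 5 lower and the median −0.02.

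Haem transport and breakdown was the list with the most genes past 2-fold. Of 9 measured, 5 counted as higher and 1 as lower, beside 10.0% and 6.84% of all genes measured, and the median was 1.12. These 9 genes are too few for a share of this kind to be set against the background. Flvcr1, a haem exporter gene, had signals of −2.62 and −4.67, a difference of 2.05 (SD 0.30) that was 0.77 at its lowest across the alternatives. Pgrmc1, a haem-binding membrane protein gene, had 0.03 and −1.76, a difference of 1.78 (SD 0.14), and was past 2-fold under each of its 12 alternatives. Slc48a1, a haem importer of endosomes, had a difference of 1.12 on its only probe. Of the alternative scalings and background treatments, only median centring (1.10) left it past 2-fold. It was 0.92 with scaling over all probes and 0.77 with normexp correction. The constitutive oxygenase gene Hmox2 had differences of 1.16 and 0.15 on its 2 probes, and Blvra, the partner of Blvrb, 1.20 and −0.79, so the direction of Blvra depends on the probe. The haptoglobin gene Hp had a difference of −0.81. Slc46a1, a folate and haem carrier gene, was the lower one, at −1.08 on its brighter probe and −0.16 on the other. With scaling over all probes the list had 2 higher and 2 lower. It had 3 and 0 with normexp correction, no background subtraction, the mean over measured probes and the next brightest probe. The medians were then 0.77, 0.79, 0.65 and 0.15.

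**Figure D4:**
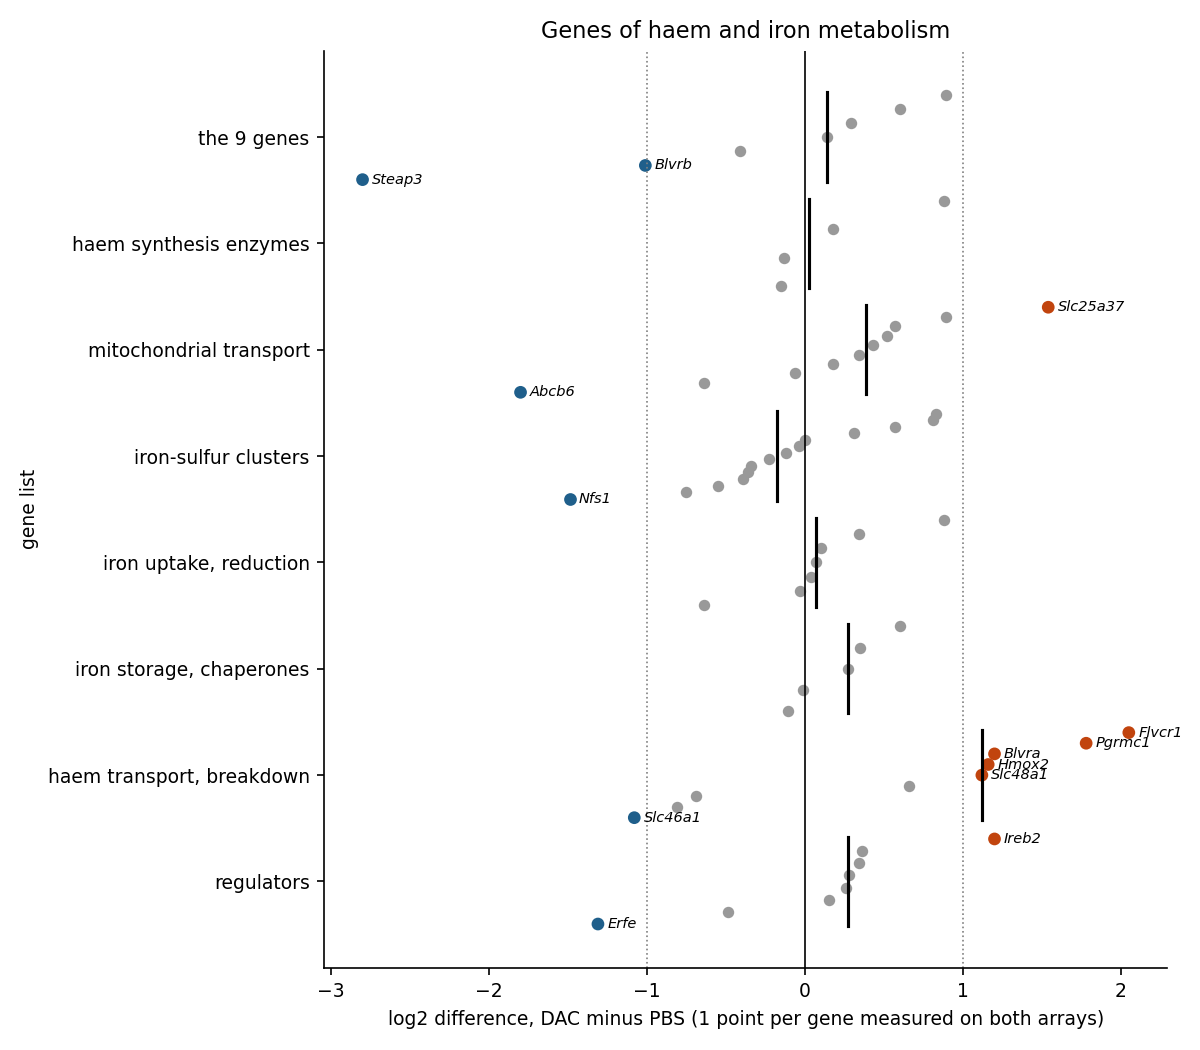
Log2 difference (DAC minus PBS) of each gene measured on both arrays, by list; black bars are list medians, dotted lines 2-fold, and coloured, named points are the genes past it. The 7 members plotted have a median of 0.14 and the list of haem transport and breakdown one of 1.12, with 5 of its 9 genes beyond the upper line. With scaling over all probes, 2 of these 9 were beyond it.

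Mitochondrial carriers went both ways. Of 10 measured, 1 counted as higher and 1 as lower, and the median was 0.38. Slc25a37, which encodes mitoferrin 1, the iron importer of erythroid mitochondria, had 0.72 and −0.82, a difference of 1.54 (SD 0.09) on one probe and of 0.29 on the other. Tmem14c, a porphyrin carrier gene, had a difference of 0.18. Abcb6, a porphyrin transporter gene, had −2.74 and −0.94, a difference of −1.80 (SD 0.14), past 2-fold under each of its 11 alternatives. Iron-sulfur cluster assembly had 0 of 14 genes higher and 1 lower, and a median of −0.17; the lower one was the cysteine desulfurase gene Nfs1, at −1.49 (SD 0.14), also past 2-fold under each of its 11 alternatives. Glrx5 and Nfu1, named for their high signals, had differences of −0.75 and 0.31.

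Other genes of iron uptake gave 0 of 7 measured members past 2-fold, with a median of 0.07. The transferrin gene Trf had a difference of 0.10 on its brighter probe and −0.42 on the other, and Exoc6, of the exocyst complex, −0.64 and 0.66. The remaining ferrireductase genes of the Steap family were dim: Steap1 and Steap4 were not well above background on either array, and Steap2 was detected with DAC alone, with a bound of 1.40-fold. The ferric reductase gene Cybrd1 and the endolysosomal channel gene Mcoln1 were likewise detected with DAC alone, with bounds of 8.26-fold and 7.58-fold. Each has 2 probes, neither well above background with PBS, and the bound is that of the probe brightest with DAC. Slc11a1, the phagosomal metal transporter gene of macrophages and neutrophils, was detected with PBS alone, with a bound of 3.09-fold. Bounds of 2-fold or more were thus found for 2 of 13 genes with DAC alone and 1 with PBS alone. Among all genes the shares were 3.61% and 1.52%. Storage and chaperone genes were closer, with 0 of 5 past 2-fold and a median of 0.27; the ferritin light chain gene Ftl1 had −0.11 on its brighter probe and 0.48 on the other, and Pcbp2, an iron chaperone gene, 0.27 and −0.35.

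Regulators of iron and haem were measured for 8 of 13 genes, of which 1 counted as higher and 1 as lower, and the median was 0.27. Ireb2, which encodes iron regulatory protein 2, had −2.25 and −3.45, a difference of 1.20 (SD 0.30). It was past 2-fold under 7 of its 11 alternatives, among them the filters and probe choices that cannot move it. It fell within 2-fold under the others, to 0.91 with quantile normalization and 0.58 without background subtraction. Erfe, the gene of the erythroid hormone erythroferrone, had −4.02 and −2.71, a difference of −1.31 (SD 0.30), past 2-fold under 9 of 11. The haem-sensing repressor gene Bach1 had a difference of −0.49 and Nfe2l2, an activator of Hmox1, one of 0.36. Keap1, which holds NFE2L2 back, had 0.34 and the haem-regulated kinase gene Eif2ak1 0.28. Of 8 NFE2L2 target genes 6 were measured, 0 higher and 0 lower past 2-fold, with a median of 0.07; the thioredoxin reductase gene Txnrd1 had 0.43 and the peroxiredoxin gene Prdx1 −0.42 on its brighter probe and −0.99 on the other.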

How the data were processed

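Bone marrow LSK RNA was hybridised in 1 colour (Cy3), and both arrays lay on 1 slide. Per the file headers, Agilent Feature Extraction 10.7.3.1 (protocol GE1_107_Sep09) made the deposited processed intensity with spatial and multiplicative detrending on. The deposited series matrix holds log2 values with a median of 0.00 in each column; its column difference followed the log2 processed intensity with a slope of 1.00, and its baseline per probe is unknown. From the intensities, log2 signals were averaged over spots and scaled by the 75th percentile over probes well above background on both arrays (at least 50% of spots). The brightest probe stood for a gene. Names came from the files and a GRCm38.p6 gene table; 26761 probes were named by accession. Alternatives used limma 3.58.1, with normexp at an offset of 50. The calculation was tested on simulated data.

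The members and lists were chosen with earlier results of these data known. Named genes were all members, other listed genes past 2-fold or with a bound of 2-fold, and the 2 brightest of each list, with a few added after their values were seen. Of the member probes, 5 were printed, chosen for the results they carry, a planned protein comparison was not made, the lineage gene Ly6c2 was not analysed here, and 3 other listed genes were left out of their lists and are not reported here.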

Additional observations from a re-analysis of the deposited data

How the results depend on the processing

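No paired analysis was possible because the groups share 1 replicate number and hold 1 array each. Of 98 member probe values recomputed under 7 scalings or background treatments, 53 moved by less than the spot error and 45 by more, and 0 of the member differences past 2-fold changed sign. The members at least 2-fold lower numbered 2 and became 1 with normexp correction, with no background subtraction and when genes under the median signal were left out, and 3 with the scanner's positive and significant call in place of well above background, with no filter and with the next brightest probe. The members at least 2-fold higher went from 0 to 1 with the mean over measured probes and with the next brightest probe. Their median of 0.14 became −0.06 with scaling over all probes and with the series matrix values, 0.29 without genes under the median signal, −0.09 with the mean over probes and −0.41 with the next brightest probe. The 7 higher genes of the other lists became 3 with scaling over all probes and with the series matrix, 4 with normexp, with no background subtraction, without genes under the median signal and with the mean over probes, and 12 with no filter. The 4 lower ones became 2 with normexp or no background subtraction and 0 without genes under the median signal. Their median of 0.18 became −0.02 with scaling over all probes and the series matrix. With the next brightest probe, Blvra turned from 1.20 to −0.79. The cause of these shifts was not tested. Signal over background limits Alas2, Slc40a1 and the upstream Hmox1 probe, and 1 array per group limits every value.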

Other observations

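Of 7 genes that mark LSK cells, 6 were measured on both arrays, of which 1 counted as higher on the DAC array and 0 as lower. The higher one was Procr, the endothelial protein C receptor gene (1.65). From the brightest probe down, the differences were −0.30 and −0.71 for Cd34, −0.60 and −0.36 for Cd48, and −0.24, −0.75 and −1.36 for Flt3. The counts rest on the brightest probe, so the Flt3 probe past 2-fold lower is not in them. Of 6 lineage genes read from the classes that the sort depletes, 5 were measured and 0 were past 2-fold, with a median of 0.10. Itgam had differences of −0.55, 0.42 and 1.58 on its 3 probes, so it has no settled direction, and Cd4 had 0.47 on its brighter probe.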
